A study of Mus musculus with 31 samples.

Results

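The 44 genes described here encode the machinery of the lysosome: 22 hydrolases and hydrolase activators, 9 membrane and cholesterol transport proteins, 10 subunits of the proton pump, and the transcription factor genes Tfeb, Tfe3 and Mitf. They were taken by name from the 35275 genes of one count table and the 54532 genes of the other, and all 44 were present and passed the filter on low counts in both. The cells were bone marrow-derived macrophages (BMDMs) of male C57BL/6J mice aged 6 to 12 weeks, grown with L-929 conditioned medium and then moved to serum-free medium, and 31 libraries were made in 2 experiments. Experiment 1 had 3 libraries in each of 7 groups, which were Dex + dBRD9 + LPS, Dex + iBRD9 + LPS, dBRD9 + LPS, iBRD9 + LPS, Dex + LPS, LPS and vehicle. Experiment 2 had 2 libraries in each of 5 groups, which were Dex + dBRD9 + IFNγ + LPS, dBRD9 + IFNγ + LPS, Dex + IFNγ + LPS, IFNγ + LPS and vehicle. Dex is the synthetic glucocorticoid dexamethasone (1 µM), iBRD9 is an inhibitor of the bromodomain of the chromatin protein BRD9, and dBRD9 (250 nM) is a compound that degrades BRD9. The labels give iBRD9 as 3 or 10 µM without saying which sample had which. Compounds were given overnight before 3 h of lipopolysaccharide (LPS, 100 ng/ml), a bacterial cell wall component. For interferon-gamma (IFNγ) the sources used here give neither dose nor time. All groups except the vehicle groups received LPS, so each effect of Dex or of a BRD9 compound was measured in stimulated cells. The labels do not say whether replicates came from separate mice or cultures, and p-values then measure only the spread between these libraries.

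Lysosomes are acidic compartments in which proteases, glycosidases, lipases and sulfatases break down material taken up from outside or delivered by autophagy. The vacuolar H+-ATPase (V-ATPase) pumps protons across their membrane: its V1 part in the cytosol splits ATP and its V0 part in the membrane carries the protons. Many lysosome genes are direct targets of Tfeb, Tfe3 and Mitf, related factors that bind DNA at E-boxes with the core CACGTG and whose entry into the nucleus depends on phosphorylation. Macrophages use lysosomes to digest microbes, dead cells and lipoproteins and to cut antigens for presentation on MHC class II.

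The CACGTG core was looked for in RefSeq promoter windows of 250 bases before to 50 bases after each gene start (build GRCm38.p6). The 3 factors of the list bind E-boxes with this core. It reads the same on both strands, and the longer TCACGTGA contains it. Of the 44 genes, 35 had a window, and 12 of them (34.3%) held CACGTG, against 8.09% of all 27025 genes with a window. TCACGTGA was in 5 of the 35 (14.3%), against 1.12% of all genes. The strings CATGTG and CACATG were searched as well. CATGTG was in 2 of the 35 (5.71%), against 8.83% of all genes, and CACATG in 4 (11.4%), against 8.78%. The 12 genes were the protease genes Ctsa, Ctsd, Ctsl and Lgmn, the glycosidase genes Gaa, Glb1 and Naglu, the membrane protein genes Lamp1 and Mcoln1, and the pump genes Atp6v0b, Atp6v0d1 and Atp6v1a. A stretch is printed for 7 of them, read 5′ to 3′ along the gene's own strand, with the motif in capitals (all of TCACGTGA where the longer form is present).
Gaa, chr11:119267813-119267838, plus strand: tctgtgcgatCACGTGtttgactctg
Naglu, chr11:101070011-101070036, plus strand: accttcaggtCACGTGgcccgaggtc
Glb1, chr9:114401020-114401045, plus strand: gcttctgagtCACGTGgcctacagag
Ctsd, chr7:142387910-142387935, minus strand: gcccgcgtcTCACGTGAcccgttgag
Lamp1, chr8:13159080-13159160, plus strand: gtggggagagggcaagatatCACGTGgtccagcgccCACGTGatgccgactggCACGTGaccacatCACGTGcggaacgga
Mcoln1, chr8:3500464-3500489, plus strand: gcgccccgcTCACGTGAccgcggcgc
Atp6v1a, chr16:44139375-44139400, minus strand: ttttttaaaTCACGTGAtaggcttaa
Lamp1 carried 4 copies within 81 bases, ending at the last base before the RefSeq start. In Gaa the motif began 140 bases before the start, in Naglu 73, in Glb1 48 and in Ctsd 98. A match is only a string of letters in this window, and binding was not measured.

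Depth was 19253941 to 29912533 counts per library in experiment 1 and 14472828 to 17930566 in experiment 2. Levels are given in CPM, the usual scaling of counts to a common library size, on library totals adjusted by the trimmed mean of M-values (TMM), and a gene was called at an adjusted p under 0.05 in edgeR's quasi-likelihood test over 12662 genes in experiment 1 and 13313 in experiment 2. Dex and LPS left their known marks in experiment 1. The glucocorticoid target Fkbp5 had 533 to 546 CPM with Dex + LPS, against 26.9 to 29.2 CPM with LPS. The cytokine gene Il6 had 395 to 416 CPM with LPS and no count in the vehicle libraries of experiment 1. Such a check is not given here for IFNγ, for the BRD9 compounds or for experiment 2. All 9 macrophage markers exceeded 1 CPM in every group. Markers of T and NK cells summed to at most 0.219 CPM and those of neutrophils to at most 29.4 CPM in any library. Stromal markers summed to at most 0.385 CPM in experiment 1 and to 32.6 to 66.4 CPM in experiment 2, and their part in the results of experiment 2 was not tested. Replicate 1 of Dex + LPS and replicate 1 of Dex + dBRD9 + LPS stood apart from their groups in a trend with gene length (Spearman rho of deviation with summed exon length -0.694 and -0.544 over 5974 genes), and where a call stated for a gene changes without both, this is given beside it. In experiment 2 the libraries of a group mirrored each other in this trend, with rho up to 0.659 in the vehicle pair. TMM factors of the other groups lay between 0.88 and 1.02, while vehicle libraries had 1.27 to 1.29 (experiment 1) or 1.37 to 1.45 (experiment 2). With library totals alone the median log2 fold change of all genes was -0.562 for LPS against vehicle, where TMM scaling gave -0.0484, and -0.758 for IFNγ + LPS against vehicle, where TMM scaling gave -0.11. Small rises with LPS turn round under library totals, and such cases are named beside the gene or in the closing section on processing. In the annotation, Ctsa, Ctsb, Ctsc, Ctsd, Ctsl, Ctss, Ctsz, Hexa, Galns, Glb1, Manba, Lamp1, Npc1, Scarb2, Atp6v0a1, Atp6v0b, Atp6v1b2, Atp6v1h and Mitf overlap other genes or pseudogenes, Ctsd and Glb1 with a coding gene on the same strand. The sources used here do not give the strand setting of the counting, so reads of these genes and their partners cannot be told apart.

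The 44 genes took up 4.64% of all counts with Dex + dBRD9 + LPS, 4.88% with Dex + iBRD9 + LPS, 4.59% with dBRD9 + LPS, 5.82% with iBRD9 + LPS, 4.78% with Dex + LPS, 4.59% with LPS and 7.41% in vehicle libraries (means, n = 3). In experiment 2 the share was 5.67% with Dex + dBRD9 + IFNγ + LPS, 5.21% with dBRD9 + IFNγ + LPS, 5.36% with Dex + IFNγ + LPS, 5.6% with IFNγ + LPS and 8.97% in vehicle libraries (n = 2). These shares move with the few most abundant genes of the library as well as with the 44. Per kb of summed exon length, the levels in vehicle libraries of experiment 1 spanned a wide range. Psap, the precursor of the saposins that help enzymes reach lipids, was highest at 3632 CPM per kb, followed by the protease genes Ctsd (3328 CPM per kb), Ctss (2139 CPM per kb) and Ctsb (1711 CPM per kb). The calcium channel gene Mcoln1 (7 CPM per kb) and the protease gene Ctsk (7.88 CPM per kb) were at the low end. The bulk RNA cannot tell fewer cells that express a gene from less RNA of it per cell.

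Of the 44 genes, 7 were higher and 27 lower with LPS than in vehicle libraries (77.3%), where 75.3% of all genes were called, 36.1% higher and 39.3% lower. With iBRD9 + LPS, 26 were higher and 10 lower than with LPS (81.8%), where 62% of all genes were called, 31.4% higher and 30.5% lower. With Dex + LPS, 14 were higher and 19 lower than with LPS, where 55.4% of all genes were called, 27.9% higher and 27.5% lower. With dBRD9 + LPS, 9 were higher and 8 lower than with LPS, where 16.6% of all genes were called, 6.64% higher and 9.97% lower. In iBRD9 + LPS against dBRD9 + LPS, 22 were higher and 8 lower, where 55.6% of all genes were called, 28.3% higher and 27.3% lower. In Dex-treated cells, iBRD9 gave 7 higher and 16 lower genes, where 34.7% of all genes were called, 16.7% higher and 18% lower. There dBRD9 gave 1 higher and 8 lower, where 15.8% of all genes were called, 6.51% higher and 9.28% lower. In experiment 2, IFNγ + LPS gave 6 higher and 15 lower than in vehicle libraries, where 68.5% of all genes were called, 32.8% higher and 35.6% lower. Dex + IFNγ + LPS gave 4 higher and 2 lower than IFNγ + LPS, where 19.9% of all genes were called, 10.7% higher and 9.21% lower. The share called among the 44 was thus close to that of all genes with LPS. It was above that of all genes with iBRD9 + LPS, Dex + LPS (75%) and dBRD9 + LPS (38.6%). It was below that of all genes with IFNγ + LPS (47.7%) and with Dex + IFNγ + LPS (13.6%). The 44 were not matched to all genes in level. The split between directions was uneven for LPS, for IFNγ + LPS, for iBRD9 and for the comparison of both compounds. The median log2 fold change of the 44 was -0.202 with LPS against -0.0484 for all genes, 0.19 with iBRD9 + LPS against 0.0104 for all genes, and -0.122 with Dex + LPS against 0.00654 for all genes. Without the libraries that stood apart by length, the counts higher and lower were 8 and 28 for LPS, 14 and 22 for Dex + LPS, 26 and 12 for iBRD9 + LPS, 15 and 10 for dBRD9 + LPS, 28 and 11 for iBRD9 + LPS against dBRD9 + LPS, and, in Dex-treated cells, 9 and 15 for iBRD9 and 5 and 10 for dBRD9. By library totals alone the split was 3 higher and 39 lower for LPS against vehicle, and 1 higher and 39 lower for IFNγ + LPS against vehicle. The same scaling gave 14 higher and 7 lower for dBRD9 + LPS against LPS, and 6 higher and 1 lower for Dex + IFNγ + LPS against IFNγ + LPS. For iBRD9 in Dex-treated cells the split was 15 higher and 9 lower by library totals and 4 higher and 19 lower by DESeq2 size factors, so no direction of the list as a whole can be read there. For dBRD9 in Dex-treated cells it was 5 higher and 7 lower by library totals and 0 higher and 11 lower by DESeq2 size factors.

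**Figure D1:**
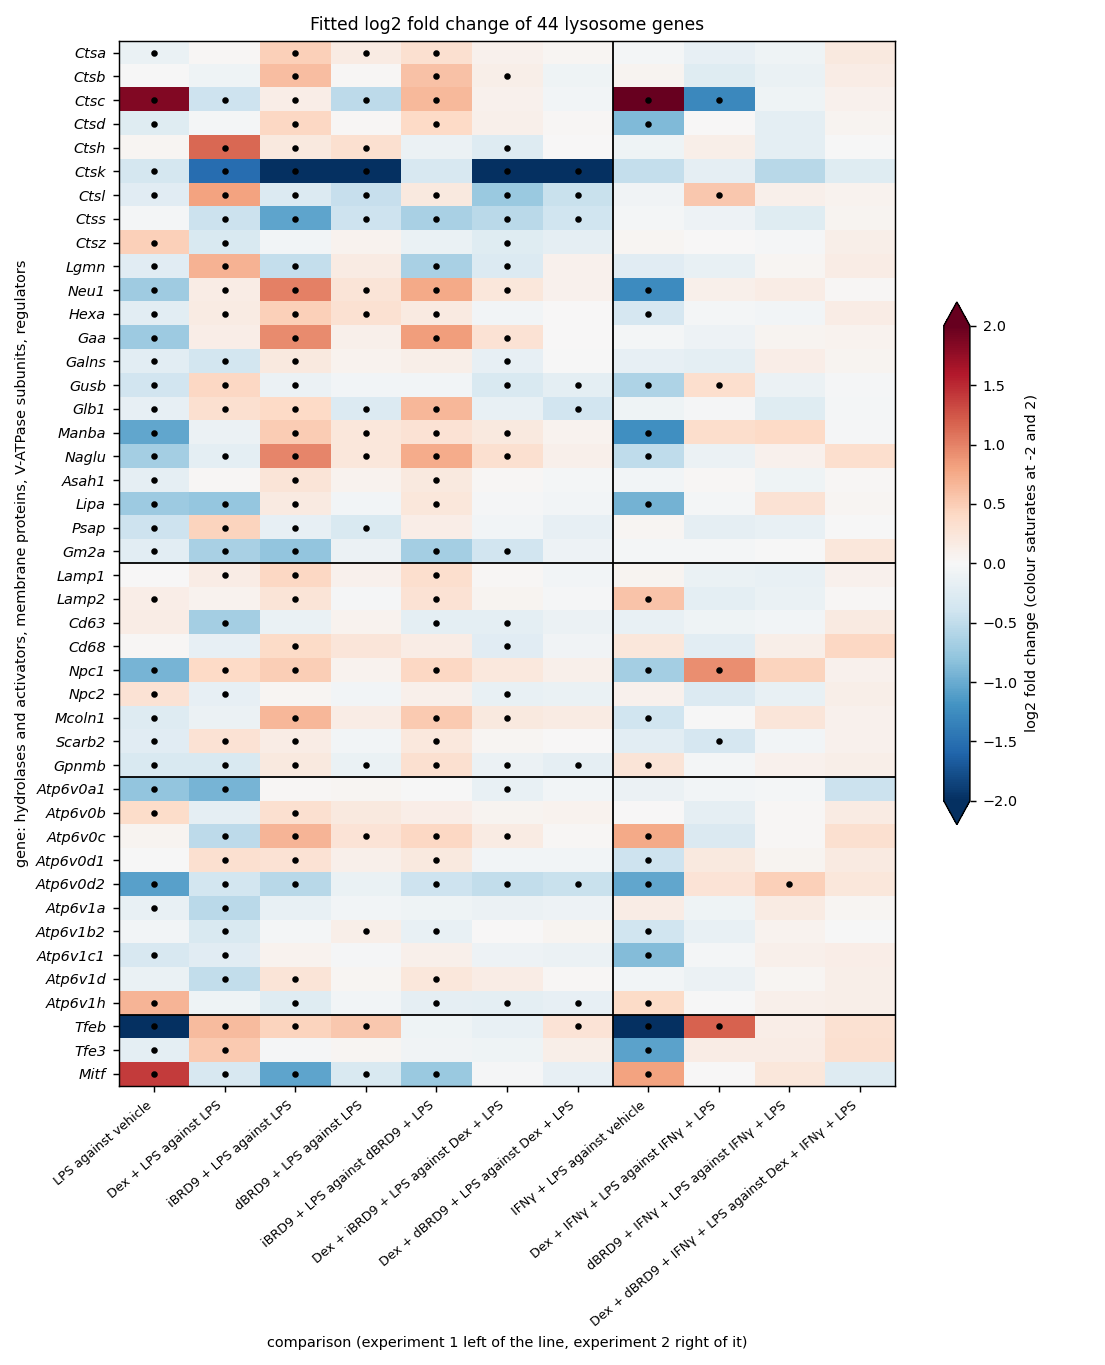
Fitted log2 fold changes of the 44 genes (rows, grouped as hydrolases and activators, membrane proteins, V-ATPase subunits and regulators) in 11 comparisons (columns), with a black dot where a gene was called. The iBRD9 + LPS column holds 26 higher and 10 lower genes, and the LPS column 7 higher and 27 lower.

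Tfeb had the largest log2 fold change of the 44 genes with LPS, and Mitf moved in the opposite direction. The factor best known for driving lysosome genes, Tfeb, had 13.1, 14.1 and 13.9 CPM with LPS, against 79.5, 78.2 and 78.5 CPM in vehicle libraries. It fell by 2.52 on the log2 scale (SE 0.0925, edgeR adjusted p = 5.36e-17), a 5.74-fold fall. With IFNγ + LPS it had 5.4 and 6.86 CPM, against 81.1 and 71.3 CPM in vehicle libraries, a 12.5-fold fall (adjusted p = 4.44e-12). Tfe3, its close relative, had 121, 125 and 127 CPM with LPS, against 145, 141 and 141 CPM in vehicle libraries, a log2 fold change of -0.20 (SE 0.0417). With IFNγ + LPS it had 58.3 and 61 CPM, against 119 and 132 CPM in vehicle libraries, a log2 fold change of -1.07 (SE 0.113). Mitf, which also governs pigment cells and osteoclasts, rose. It had 374, 375 and 372 CPM with LPS, against 145, 143 and 139 CPM in vehicle libraries, a 2.63-fold rise (edgeR adjusted p = 8.54e-13). With IFNγ + LPS it had 119 and 134 CPM, against 64.9 and 79.8 CPM in vehicle libraries, a log2 fold change of 0.81 (SE 0.122), which was not called by library totals alone. In each of these comparisons the libraries of both groups did not overlap. The share of all genes without such overlap was not counted, here or in the paragraphs below, so this does not set the named genes apart.

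Dex raised Tfeb and Tfe3 in LPS-treated cells. Tfeb had 24.4, 20.2 and 19.4 CPM with Dex + LPS, against 13.1, 14.1 and 13.9 CPM with LPS, a log2 fold change of 0.64 (SE 0.098), and of 0.53 without the libraries that stood apart by length. In experiment 2 it had 13.7 and 13.8 CPM with Dex + IFNγ + LPS, against 5.4 and 6.86 CPM with IFNγ + LPS, a 2.26-fold rise (edgeR adjusted p = 6.76e-05). The level with Dex stayed far under that of vehicle libraries in both experiments. Tfe3 had 184, 176 and 176 CPM with Dex + LPS, against 121, 125 and 127 CPM with LPS, a log2 fold change of 0.53 (SE 0.0419). With IFNγ the change of Tfe3 under Dex was 0.15 and missed the threshold. Mitf fell by 0.32 on the log2 scale with Dex + LPS against LPS (SE 0.0835), and by 0.19 without the libraries that stood apart by length.

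Both BRD9 compounds raised Tfeb and lowered Mitf in LPS-treated cells. Tfeb had 19.8, 17.2 and 19 CPM with iBRD9 + LPS (log2 fold change 0.45, SE 0.0975) and 19.9, 19.8 and 19.9 CPM with dBRD9 + LPS (0.53, SE 0.0986), against 13.1, 14.1 and 13.9 CPM with LPS. Mitf had 170, 198 and 171 CPM with iBRD9 + LPS, against 374, 375 and 372 CPM with LPS, a 2.08-fold fall (edgeR adjusted p = 2.67e-10). With dBRD9 + LPS it had 282, 321 and 301 CPM, a log2 fold change of -0.31 (SE 0.0835). The direct comparison of iBRD9 + LPS with dBRD9 + LPS gave -0.75 for Mitf (95% interval -0.921 to -0.572), while for Tfeb the interval was -0.28 to 0.112. Tfe3 was not called with either compound alone. In Dex-treated cells Mitf had 301, 299 and 286 CPM with Dex + iBRD9 + LPS, against 250, 329 and 322 CPM with Dex + LPS, and these libraries overlapped. The change was not called, and was called without the libraries that stood apart by length (-0.143, edgeR adjusted p = 0.0212). The difference between the iBRD9 effects with and without Dex was 1.03 for Mitf on the log2 scale (SE 0.119, edgeR adjusted p = 4.19e-07) and -0.60 for Tfeb (SE 0.137, edgeR adjusted p = 0.00155).

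**Figure D2:**
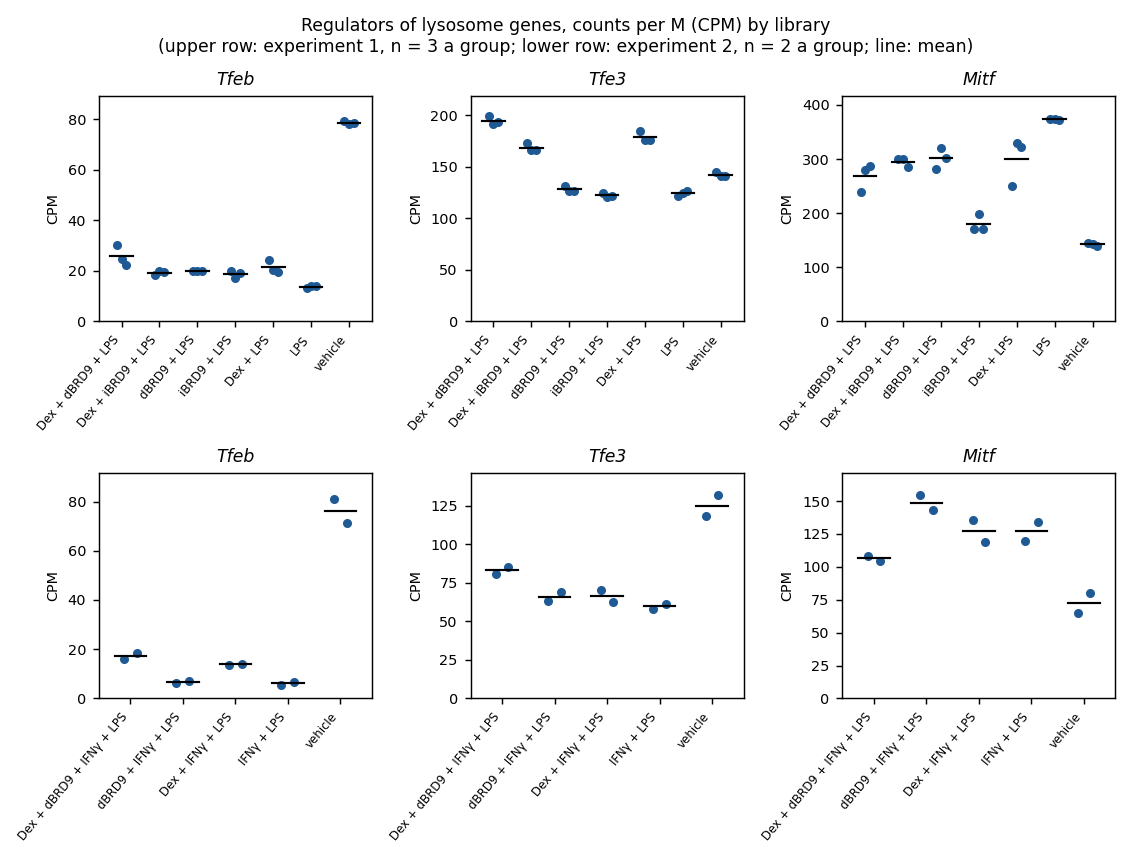
CPM of Tfeb, Tfe3 and Mitf in each library (points) and group mean (lines), experiment 1 above and experiment 2 below. Tfeb lies between 13.1 and 30.3 CPM in every LPS-treated library of experiment 1 and at 78.2 to 79.5 CPM in vehicle libraries, and Mitf is highest with LPS and lowest in vehicle libraries in experiment 1.

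All 8 glycosidase and sulfatase genes fell with LPS (median log2 fold change -0.53), where 39.3% of all genes fell. All 8 were also called lower under every other normalization, filter and tool tried. Manba, which removes mannose from glycans, had 28.7, 30.3 and 29.9 CPM with LPS, against 59.1, 61.8 and 62.2 CPM in vehicle libraries, a 2.06-fold fall (edgeR adjusted p = 2.77e-13). Neu1, the lysosomal sialidase, had 46.1, 46 and 44.9 CPM with LPS, against 73.8, 74.9 and 76.7 CPM in vehicle libraries, a log2 fold change of -0.72 (SE 0.0572). Gaa, which degrades glycogen, had 53.3, 55.8 and 54.1 CPM with LPS, against 93.6, 89.3 and 86.7 CPM in vehicle libraries (-0.72, SE 0.0585). Naglu, an enzyme of heparan sulfate breakdown, had 78.6, 73 and 74.3 CPM with LPS, against 126, 119 and 116 CPM in vehicle libraries (-0.68, SE 0.0521). The LPS libraries of these genes all lay below the vehicle libraries, and the share of all genes with such a gap was not counted. Gusb, which removes glucuronic acid, fell by 0.38, Hexa, which cleaves gangliosides, by 0.21, Galns, a sulfatase, by 0.21 and Glb1, the β-galactosidase, by 0.16. In experiment 2, 5 of the 8 were lower with IFNγ + LPS than in vehicle libraries, where 35.6% of all genes were lower. Neu1 fell by 1.26 there, with 39 and 39.6 CPM with IFNγ + LPS, against 96.9 and 91.1 CPM in vehicle libraries, and Manba fell by 1.22. Gaa did not pass in experiment 2, with 89.3 and 98.2 CPM with IFNγ + LPS, against 89.8 and 102 CPM in vehicle libraries.

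With iBRD9, 7 of these 8 genes were higher than with LPS and 1 was lower (median 0.498). Of all genes 31.4% were higher and 30.5% lower. Neu1 had 94.7, 89.5 and 91.7 CPM with iBRD9 + LPS, against 46.1, 46 and 44.9 CPM with LPS, a 2.01-fold rise (edgeR adjusted p = 6.68e-13). Naglu had 146, 146 and 153 CPM with iBRD9 + LPS, against 78.6, 73 and 74.3 CPM with LPS, a 1.97-fold rise (edgeR adjusted p = 2.34e-13). Gaa had 104, 96.9 and 113 CPM with iBRD9 + LPS, against 53.3, 55.8 and 54.1 CPM with LPS, a 1.92-fold rise. The iBRD9 + LPS libraries of these 3 genes stood above the LPS libraries and also above the vehicle libraries. Manba rose by 0.52, Hexa by 0.48, Glb1 by 0.39 and Galns by 0.19. Gusb fell by 0.11 (SE 0.0433), which library totals turn to a rise of 0.02 that was not called. With dBRD9 the changes were smaller: 4 of the 8 were higher than with LPS and 1 was lower. Of all genes 6.64% were higher and 9.97% lower. Hexa rose by 0.30, Neu1 by 0.25, Manba by 0.23 and Naglu by 0.23, and Glb1 fell by 0.27 (SE 0.0636). Gaa had 55.8, 58.5 and 61.1 CPM with dBRD9 + LPS, and the 95% interval of its log2 fold change against LPS was -0.021 to 0.227. Set directly against dBRD9 + LPS, iBRD9 + LPS was higher by 0.84 in Gaa (95% interval 0.719 to 0.962), by 0.76 in Neu1 (0.639 to 0.875) and by 0.75 in Naglu (0.638 to 0.854). The doses of the compounds differ and that of iBRD9 is not known per sample, so these differences are between groups, not between compounds at matched doses.

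Dex alone acted unevenly on the glycosidases. With Dex + LPS, 4 of 8 were higher than with LPS (Gusb 0.42, Glb1 0.31, Hexa 0.17, Neu1 0.15) and 2 were lower (Galns -0.37, Naglu -0.19). Of all genes 27.9% were higher and 27.5% lower. Without the libraries that stood apart by length, Neu1 was at 0.099 and no longer called (edgeR adjusted p = 0.1), and Hexa was at 0.087. With Dex present the effect of iBRD9 on this group was small and mixed. In Dex + iBRD9 + LPS against Dex + LPS 4 of the 8 were higher and 2 lower, with log2 fold changes from -0.306 to 0.327. Of all genes 16.7% were higher and 18% lower, and the direction of the 44 as a whole depended on the scaling there. Naglu had 82.4, 80.5 and 85.6 CPM with Dex + iBRD9 + LPS, against 70.2, 63.3 and 64.5 CPM with Dex + LPS, a log2 fold change of 0.33 (SE 0.0531). Neu1 had 59, 59.2 and 59.5 CPM with Dex + iBRD9 + LPS, against 54.3, 47.9 and 49.6 CPM with Dex + LPS (0.23, SE 0.058). The groups did not overlap for either gene, and the share of all genes without overlap was not counted. The difference between the iBRD9 effects with and without Dex was negative and called for all 8 genes (median -0.534), from -0.78 for Neu1 (edgeR adjusted p = 8.99e-08) to -0.19 for Gusb. All 8 stayed called without the libraries that stood apart by length (median -0.448), and 7 of 8 without a filter on low counts. Of all genes 33.2% were called for this difference, 17.3% positive and 16% negative, and of the 44 genes 4 were positive and 23 negative (5 and 26 without the libraries that stood apart by length).

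**Figure D3:**
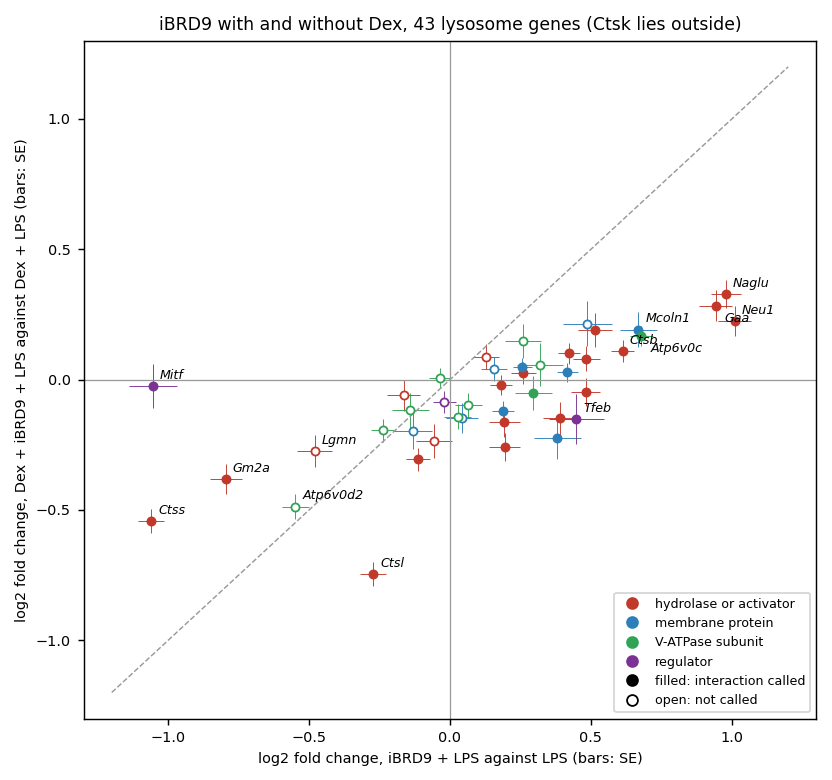
Log2 fold change of iBRD9 without Dex (horizontal) and with Dex (vertical) for 43 genes, with SE bars, and filled points where the difference between them was called. Neu1, Naglu and Gaa lie near 1 on the horizontal axis and between 0.2 and 0.4 on the vertical, and Mitf near -1 and 0, and the dashed line marks equal effects.

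The protease genes diverged from one another. Ctsc, whose product cathepsin C activates serine proteases of granules, rose with LPS, with 273, 252 and 245 CPM with LPS, against 71.2, 70 and 71.3 CPM in vehicle libraries. The rise was 3.62-fold (edgeR adjusted p = 1.11e-19). With IFNγ + LPS it had 496 and 571 CPM, against 83.6 and 87.7 CPM in vehicle libraries, a 6.22-fold rise. Ctsz, a carboxypeptidase, had 1497, 1534 and 1508 CPM with LPS, against 1083, 1095 and 1099 CPM in vehicle libraries, a rise of 0.47 that library totals turn to -0.04, which was not called. Of the 10 protease genes, 5 fell with LPS, by 0.14 to 0.35 (Ctsk, Ctsd, Ctsl, Lgmn and Ctsa), where 39.3% of all genes fell. Ctsb, an abundant endopeptidase, missed the threshold, with 10241, 10450 and 10121 CPM with LPS, against 10711, 10253 and 10104 CPM in vehicle libraries. Dex raised 3 of the protease genes and lowered 4, where 27.9% of all genes rose and 27.5% fell. Ctsh, an aminopeptidase, had 182, 165 and 169 CPM with Dex + LPS, against 82.5, 75.4 and 75.8 CPM with LPS, a 2.21-fold rise (edgeR adjusted p = 5e-14). Ctsl had 1331, 1217 and 1220.0 CPM with Dex + LPS, against 729, 719 and 717 CPM with LPS (0.80, SE 0.0461). Lgmn, the asparaginyl endopeptidase, had 1200, 1019 and 973 CPM with Dex + LPS, against 655, 664 and 647 CPM with LPS (0.70, SE 0.0615). Each of these groups lay apart, and the share of all genes for which this held was not counted. Ctsl rose by 0.54 with Dex in experiment 2 as well, while Ctsh and Lgmn were not called there. Ctsc fell with Dex in both experiments, by 0.41 under LPS and by 1.29 under IFNγ + LPS, where it had 212 and 223 CPM with Dex + IFNγ + LPS, against 496 and 571 CPM with IFNγ + LPS.

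The antigen-processing protease gene Ctss fell with both BRD9 compounds. It had 1316, 1412 and 1321 CPM with iBRD9 + LPS and 2257, 2055 and 2055 CPM with dBRD9 + LPS, against 2840, 2815 and 2784 CPM with LPS. The log2 fold changes were -1.06 (SE 0.0459) and -0.41 (SE 0.0455), and the difference between iBRD9 + LPS and dBRD9 + LPS was -0.65 (95% interval -0.747 to -0.558). Ctsl fell by 0.27 with iBRD9 and by 0.46 with dBRD9. Ctsb had 15626, 15429 and 16050 CPM with iBRD9 + LPS, against 10241, 10450 and 10121 CPM with LPS, a log2 fold change of 0.61 (SE 0.0413). With dBRD9 + LPS it had 10437, 10478 and 10475 CPM, and the interval of its change was -0.059 to 0.112. Ctsa, which protects Neu1 and the β-galactosidase in a complex, rose by 0.48 with iBRD9 and by 0.17 with dBRD9, and the aspartic protease gene Ctsd rose by 0.42 with iBRD9. Lgmn had 456, 493 and 461 CPM with iBRD9 + LPS, against 655, 664 and 647 CPM with LPS (-0.48, SE 0.0615). With dBRD9 + LPS its change was 0.17 and not called, and without the libraries that stood apart by length it was 0.171 and called (edgeR adjusted p = 0.00039). Ctsc fell to 182, 173 and 181 CPM with dBRD9 + LPS, against 273, 252 and 245 CPM with LPS (-0.52, SE 0.0473), and rose by 0.13 with iBRD9. 

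Ctsk, which encodes the collagenase cathepsin K best known from osteoclasts, had the largest log2 fold change of the 44 genes with either BRD9 compound, at a low level. It had 0.983, 0.58 and 0.94 CPM with iBRD9 + LPS and 0.958, 1 and 1.21 CPM with dBRD9 + LPS, against 8.86, 9.68 and 9.38 CPM with LPS. In reads these were 29, 14 and 22 counts with iBRD9 + LPS and 20, 22 and 25 counts with dBRD9 + LPS, against 195, 257 and 174 counts with LPS. The falls were 11-fold (edgeR adjusted p = 5.8e-13) and 8.79-fold (edgeR adjusted p = 1.15e-10). Between iBRD9 + LPS and dBRD9 + LPS the interval of the log2 difference was -0.909 to 0.262. Dex also lowered Ctsk, to 3.9, 3.08 and 2.7 CPM with Dex + LPS (-1.52, SE 0.16). Combined treatment gave 0.192, 0.369 and 0.72 CPM with Dex + dBRD9 + LPS and 0.901, 0.875 and 0.609 CPM with Dex + iBRD9 + LPS. In experiment 2 Ctsk was not called in any comparison, with 3.95 and 2.42 CPM with dBRD9 + IFNγ + LPS, against 4.61 and 4.72 CPM with IFNγ + LPS. The summed level of 8 osteoclast markers was 168 to 178 CPM with Dex + dBRD9 + LPS, 128 to 140 CPM with Dex + iBRD9 + LPS, 806 to 892 CPM with dBRD9 + LPS, 193 to 249 CPM with iBRD9 + LPS, 224 to 243 CPM with Dex + LPS, 816 to 852 CPM with LPS and 499.8 to 523 CPM in vehicle libraries. It was low with iBRD9 and with Dex, as Ctsk was. With dBRD9 + LPS the sum was as high as with LPS alone, whereas Ctsk was low with dBRD9 + LPS. With LPS the sum was higher than in vehicle libraries, whereas Ctsk was lower. In every group at least 5 of the 8 markers exceeded 1 CPM, and in LPS libraries Dcstamp (416.0 to 428.2 CPM) and Mmp9 (301.2 to 325.5 CPM) made up most of the sum, while Calcr had no count and Oscar at most 0.151 CPM. The part of such cells in the Ctsk result was not tested.

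**Figure D4:**
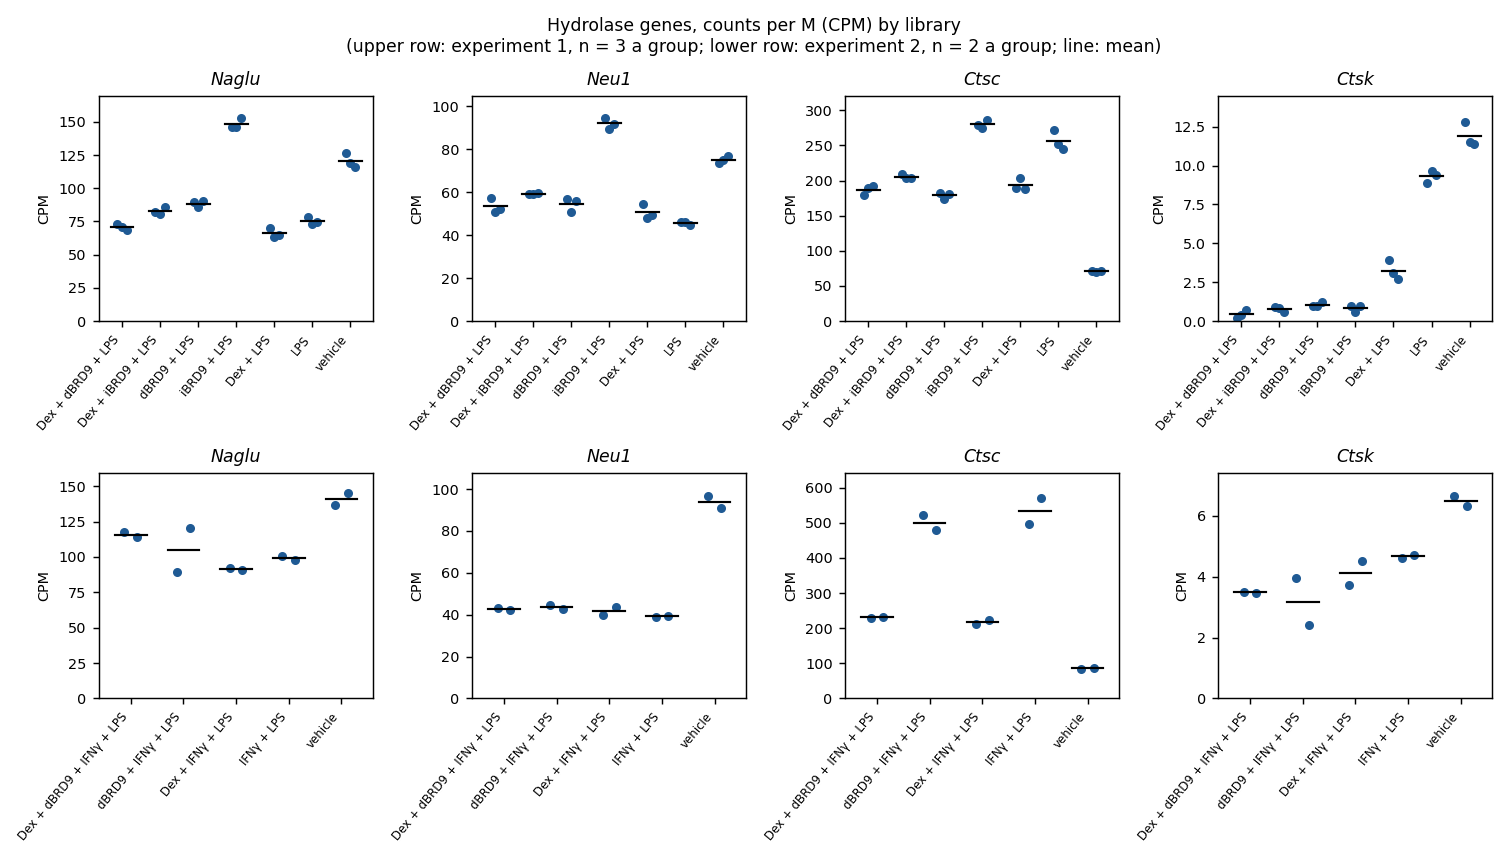
CPM of Naglu, Neu1, Ctsc and Ctsk in each library (points) and group mean (lines), experiment 1 above and experiment 2 below. Naglu and Neu1 are highest with iBRD9 + LPS in experiment 1, Ctsc is lowest in vehicle libraries in both experiments, and Ctsk stays at or below 1.21 CPM in every library of experiment 1 that had a BRD9 compound.

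The lipid hydrolase genes and the activator genes fell with LPS, all 4 of them, where 39.3% of all genes fell. Lipa, the acid lipase that frees cholesterol from lipoproteins, had 1176, 1190.3 and 1182 CPM with LPS, against 1970.0, 1962 and 1951 CPM in vehicle libraries, a log2 fold change of -0.73 (SE 0.0383). It fell by 0.94 with IFNγ + LPS. Psap fell by 0.41, Gm2a, which presents gangliosides to hexosaminidase, by 0.21, and Asah1, the acid ceramidase, by 0.18. Dex took Lipa lower still, to 671, 717 and 697 CPM with Dex + LPS, against 1176, 1190.3 and 1182 CPM with LPS (-0.77, SE 0.0384). Psap moved the other way with Dex, with 9466, 10550.0 and 10604 CPM with Dex + LPS, against 7471, 7544 and 7457 CPM with LPS (0.45, SE 0.0587). Neither was called with Dex under IFNγ + LPS. Gm2a fell with Dex (-0.64, SE 0.0565) and with iBRD9 (-0.80, SE 0.0566), where it had 247, 250.2 and 249.9 CPM with iBRD9 + LPS, against 429, 438 and 430 CPM with LPS. With dBRD9 + LPS it had 381, 397 and 419 CPM and was not called, though it was called lower without the libraries that stood apart by length (-0.113, edgeR adjusted p = 0.0126). iBRD9 + LPS was lower than dBRD9 + LPS by 0.68 (95% interval -0.797 to -0.562). Lipa rose by 0.18 and Asah1 by 0.26 with iBRD9, and Psap fell by 0.16 with iBRD9 and by 0.30 with dBRD9.

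Among the 9 membrane and transport genes, 4 fell and 2 rose with LPS, where 39.3% of all genes fell and 36.1% rose. Of the 9, Cd63 (0.16) was also called higher without the libraries that stood apart by length. By library totals Cd63 (-0.363) and Lamp2 (-0.382), which was among those that rose, were called lower. Npc1, the protein that exports cholesterol from the lysosome, had 129, 134 and 137 CPM with LPS, against 263, 255 and 242 CPM in vehicle libraries (-0.93, SE 0.0873). It fell by 0.67 with IFNγ + LPS. Dex raised it in both experiments, by 0.40 under LPS and by 0.94 under IFNγ + LPS, where it had 260.3 and 190.5 CPM with Dex + IFNγ + LPS, against 111 and 125 CPM with IFNγ + LPS. Without the libraries that stood apart by length the rise with Dex + LPS was 0.55. Its soluble partner Npc2 rose by 0.28 with LPS, which library totals turn to -0.23. Gpnmb, a glycoprotein whose gene is a known target of Mitf and Tfe3, had 6804, 7058 and 6852 CPM with LPS, against 8781, 8415 and 8306 CPM in vehicle libraries, a fall of 0.30. With IFNγ + LPS it had 8449.5 and 8718 CPM, against 7053 and 7282 CPM in vehicle libraries, a rise of 0.26 that library totals turn to -0.39. Gpnmb was the only gene called in opposite directions by LPS and by IFNγ + LPS. The same direction was called for 17 others, of 34 called with LPS and 21 with IFNγ + LPS. Of all genes 75.3% were called with LPS and 68.5% with IFNγ + LPS. The overlap over all genes was not counted, so the 17 cannot be set against it.

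With iBRD9, 7 of the 9 membrane genes rose and none fell, where 31.4% of all genes rose and 30.5% fell. Of the 9, 1 was called lower with DESeq2 size factors, with only the compared groups fitted, or without the libraries that stood apart by length. Mcoln1, the lysosomal calcium channel, had 68.6, 70.5 and 72.2 CPM with iBRD9 + LPS, against 42.1, 42.1 and 48.9 CPM with LPS (0.67, SE 0.0656). Lamp1, an abundant membrane glycoprotein, had 2115, 2124 and 2156 CPM with iBRD9 + LPS, against 1593, 1615 and 1584 CPM with LPS (0.42, SE 0.0376). Npc1 rose by 0.49, Cd68 by 0.38, Lamp2, the receptor of chaperone-mediated autophagy, by 0.26, Gpnmb by 0.19 and Scarb2, which carries β-glucocerebrosidase to the lysosome, by 0.16. With dBRD9, Gpnmb was called lower, with 6413, 6264 and 6235 CPM with dBRD9 + LPS (-0.13, SE 0.039), and the other 8 were not called. Without the libraries that stood apart by length, Cd68 (0.238), Mcoln1 (0.159) and Lamp1 (0.091) were called higher with dBRD9 as well. iBRD9 + LPS was higher than dBRD9 + LPS in 6 of the 9, by 0.21 (Scarb2) to 0.52 (Mcoln1), and lower in Cd63 by 0.20. In this comparison 28.3% of all genes were higher and 27.3% lower. Cd68 (0.144) and Npc2 (0.1) were called higher there too without the libraries that stood apart by length. Dex had mixed effects. Cd63, a tetraspanin of late endosomes, had 781, 613 and 610.4 CPM with Dex + LPS, against 1037, 1090.0 and 1079.6 CPM with LPS (-0.68, SE 0.069), and Gpnmb fell by 0.31. Scarb2 rose by 0.28 with Dex under LPS and fell by 0.33 with Dex under IFNγ + LPS.

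The proton pump genes did not move as a block with LPS. Atp6v0d2, a form of the d subunit typical of osteoclasts and some macrophages, had 202, 201 and 193 CPM with LPS, against 423, 418 and 418 CPM in vehicle libraries, a 2.11-fold fall (edgeR adjusted p = 1.11e-15). Atp6v0d1, the widely expressed form, had 147, 136 and 144 CPM with LPS, against 146, 140.1 and 145 CPM in vehicle libraries and was not called. In experiment 2 Atp6v0d2 had 86.1 and 87.1 CPM with IFNγ + LPS, against 176 and 179.7 CPM in vehicle libraries (-1.04, SE 0.105), and Atp6v0d1 fell by 0.42. Atp6v0a1, the membrane subunit beside the proton channel, had 454, 463 and 464 CPM with LPS, against 833, 784 and 759 CPM in vehicle libraries (-0.78, SE 0.048), and did not pass in experiment 2. Atp6v1h, a regulatory subunit of V1, rose with LPS, with 163, 167 and 167 CPM with LPS, against 101.2, 102.4 and 107.5 CPM in vehicle libraries (0.67, SE 0.0446). In all, 2 of the 10 rose and 4 fell with LPS, where 36.1% of all genes rose and 39.3% fell. By library totals 1 of the 10 rose and 8 fell, and without the libraries that stood apart by length Atp6v1d (-0.129) was also called lower.

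With Dex, 7 of 10 pump genes fell and 1 rose in experiment 1, in Dex + LPS against LPS (median -0.334, against 0.00654 for all genes). Of all genes 27.5% fell and 27.9% rose. For the pump genes the count was 9 lower and 1 higher without the libraries that stood apart by length, and 7 lower and 1 higher by library totals. Atp6v0a1 had 234, 250.2 and 239 CPM with Dex + LPS, against 454, 463 and 464 CPM with LPS, a 1.91-fold fall (edgeR adjusted p = 1.69e-13). Atp6v1a, the catalytic subunit, had 418, 531 and 545 CPM with Dex + LPS, against 715, 717 and 728 CPM with LPS (-0.53, SE 0.0665). Atp6v0c, the subunit of the proton-carrying ring, had 456, 435 and 418 CPM with Dex + LPS, against 617, 635 and 627 CPM with LPS (-0.52, SE 0.0399). Atp6v1d, part of the rotor, fell by 0.49, Atp6v0d2 by 0.36, Atp6v1b2 by 0.30 and Atp6v1c1 by 0.22. The exception was Atp6v0d1, with 207, 164 and 165 CPM with Dex + LPS, against 147, 136 and 144 CPM with LPS (0.32, SE 0.0655, and 0.21 without the libraries that stood apart by length). Under IFNγ + LPS none of the 10 was called with Dex in edgeR, where 19.9% of all genes were called, and 2 had an unadjusted p under 0.05. Atp6v0a1 had 540.4 and 496 CPM with Dex + IFNγ + LPS, against 538 and 539.7 CPM with IFNγ + LPS. Experiment 2 had 2 libraries a group, and the effect of Dex was not tested against that of experiment 1.

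**Figure D5:**
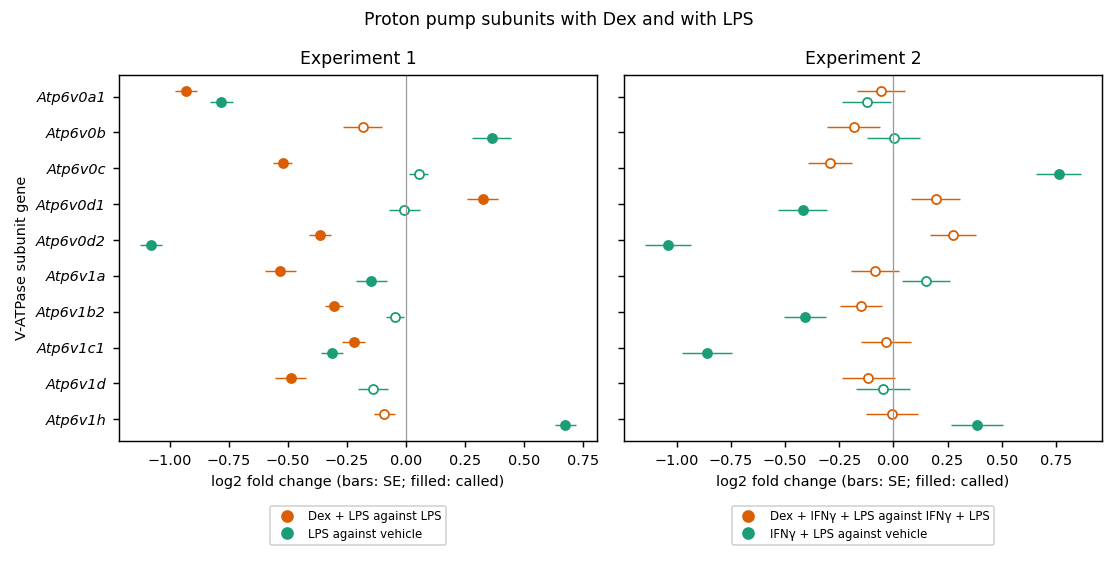
Log2 fold changes with SE bars of the 10 V-ATPase subunit genes for Dex (orange) and for stimulation (green), experiment 1 on the left and experiment 2 on the right, with filled points where a gene was called. In experiment 1, 7 of the 10 Dex points are filled below 0 and Atp6v0d1 is filled above it, and in experiment 2 no Dex point is filled.

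With iBRD9 4 pump genes rose and 2 fell, where 31.4% of all genes rose and 30.5% fell. By library totals 7 pump genes rose and 2 fell. Atp6v0c had 992, 1006 and 1011 CPM with iBRD9 + LPS, against 617, 635 and 627 CPM with LPS (0.68, SE 0.0399), and with Dex + iBRD9 + LPS it had 488, 486 and 496 CPM, against 456, 435 and 418 CPM with Dex + LPS (0.17, SE 0.0399). The difference between these effects was -0.51 (SE 0.0563, edgeR adjusted p = 2.23e-07). Atp6v0b rose by 0.32, Atp6v0d1 by 0.30 and Atp6v1d by 0.26 with iBRD9. Atp6v0d2 fell with iBRD9, with 137, 142 and 129 CPM with iBRD9 + LPS, against 202, 201 and 193 CPM with LPS (-0.55, SE 0.0466), and Atp6v1h fell by 0.24. With dBRD9 + LPS Atp6v0d2 had 179.8, 182 and 183 CPM and was not called, Atp6v0c rose by 0.27 and Atp6v1b2 by 0.12. Without the libraries that stood apart by length, Atp6v0d2 was called lower (-0.126, edgeR adjusted p = 0.0108), and Atp6v0b (0.194) and Atp6v0d1 (0.109) higher. For iBRD9 the same fit added Atp6v1a (-0.14) as lower. Added to Dex, both compounds lowered Atp6v0d2: it had 116, 115 and 108 CPM with Dex + dBRD9 + LPS and 113, 112 and 105 CPM with Dex + iBRD9 + LPS, against 157, 157 and 149 CPM with Dex + LPS (-0.45, SE 0.047, and -0.49, SE 0.0472). The osteoclast marker sums given with Ctsk were likewise lower in these combined groups than with Dex + LPS. With Dex + LPS and with iBRD9 + LPS, both the sums and Atp6v0d2 were lower than with LPS. With LPS, however, the sums were higher than in vehicle libraries, whereas Atp6v0d2 was lower. The part of such cells in the Atp6v0d2 result was not tested.

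The iBRD9 effect with and without Dex was called for 19 of the 44 genes in both settings, and 15 of these had the same direction. Of all genes 62% were called without Dex and 34.7% with Dex. The overlap over all genes was not counted, so the 19 cannot be set against it. Ctsh, Galns, Cd68 and Gpnmb rose with iBRD9 without Dex and fell with iBRD9 in Dex-treated cells. Without the libraries that stood apart by length, the falls of Galns (-0.134, edgeR adjusted p = 0.0668) and Cd68 (-0.076, edgeR adjusted p = 0.18) were not called. These comparisons share no libraries. With Dex, the largest falls under iBRD9 were those of Ctsk (-2.03, SE 0.243), Ctsl (-0.75, SE 0.0461) and Ctss (-0.54, SE 0.0456). Ctsl had 742, 751 and 753 CPM with Dex + iBRD9 + LPS and 913, 913 and 926 CPM with Dex + dBRD9 + LPS, against 1331, 1217 and 1220.0 CPM with Dex + LPS. In Dex-treated cells dBRD9 lowered Ctsk by 2.97, Ctsl by 0.45, Glb1 by 0.38 and Ctss by 0.40, and raised Tfeb by 0.27 (edgeR adjusted p = 0.0473, and up to 0.366 over the alternatives). Leaving out replicate 1 of Dex + LPS changed the count for dBRD9 in Dex-treated cells to 17 of 44, against 9 of 44 with it. The difference between the dBRD9 effects with and without Dex was called for 5 of the 44 genes, against 3.39% of all genes (1.82% positive and 1.57% negative). It was positive for Ctsc (0.47, SE 0.0669) and negative for Ctsh (-0.31), Atp6v0d2 (-0.32), Hexa (-0.29) and Atp6v0c (-0.25), and also for Cd68 (-0.244) without the libraries that stood apart by length.

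In experiment 2, dBRD9 changed 1 of the 44 genes under IFNγ + LPS, where 1.83% of all genes were called, 0.819% higher and 1.01% lower. Atp6v0d2 had 113 and 128 CPM with dBRD9 + IFNγ + LPS, against 86.1 and 87.1 CPM with IFNγ + LPS, a log2 fold change of 0.47 (SE 0.105, edgeR adjusted p = 0.0293), and the call was lost when any of these 4 libraries was left out. At an unadjusted p under 0.05 there were 7 genes. No gene was called in edgeR for Dex + dBRD9 + IFNγ + LPS against Dex + IFNγ + LPS, where 1.4% of all genes were called, 0.233% higher and 1.16% lower. There 7 genes had an unadjusted p under 0.05, DESeq2 called 2 and limma voom 1. Nor was any called in edgeR, DESeq2 or limma voom for the difference between the dBRD9 effects with and without Dex, where 0.00751% of all genes were called and 3 of the 44 had an unadjusted p under 0.05. In simulated data of this size 30% of 1.5-fold changes and 76% of 2-fold changes were recovered for dBRD9 + IFNγ + LPS against IFNγ + LPS. Changes near 1.5-fold could thus be missed. The planted genes were drawn at random and not matched in level to the 44, and larger changes were not planted. The interval for Ctsc was -0.31 to 0.127 under IFNγ + LPS, and that for Ctsk -1.092 to -0.009. Neither interval held the fall that the gene had with dBRD9 + LPS against LPS.

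Lysosome genes outside the 44 were followed through lists of other hydrolases, other membrane and sorting genes, other pump genes, nutrient-sensing genes, autophagy genes and cathepsin inhibitors. Of all genes, 36.1% were called higher and 39.3% lower with LPS against vehicle. Against LPS, 31.4% were higher and 30.5% lower with iBRD9 + LPS, and 27.9% higher and 27.5% lower with Dex + LPS. With LPS, 7 of 32 other hydrolase genes rose and 20 fell. Sgsh, a sulfatase of heparan sulfate breakdown, fell by 3.37 and Pla2g15, a lysosomal phospholipase, by 1.77, while Acp5 rose by 2.38. Sgsh had 1.91, 2.41 and 3.4 CPM with LPS, against 27.7, 26.4 and 24.5 CPM in vehicle libraries. Of the nutrient-sensing genes 3 of 16 rose and 10 fell. Tfec, a relative of Tfeb in macrophages, rose by 3.78, and Rragd and Fnip2, which act in the Rag GTPase branch that holds Tfeb in the cytosol, fell by 3.16 and 2.45. With iBRD9 16 of 32 other hydrolase genes rose and 6 fell, with Sgsh at 11.8, 11.1 and 11.8 CPM (2.19, SE 0.125), and of the 27 other membrane and sorting genes 15 rose and 9 fell. Autophagy genes rose more often than they fell with iBRD9 (12 of 17 against 1) and with Dex (13 of 17 against 1). Ulk1, the kinase that starts autophagy, rose by 1.32 with iBRD9 and by 0.94 with Dex, and Wipi1 by 1.17 and 1.11. Of the 9 other pump genes tested, 2 rose and 3 fell with Dex + LPS, with log2 fold changes of all 9 between -0.253 and 0.571. Cst7, an inhibitor of cathepsin C and related proteases, had 1.02, 2.11 and 1.28 CPM with iBRD9 + LPS, 23.5, 23.4 and 23.4 CPM with dBRD9 + LPS and 11.7, 10.6 and 9.5 CPM with Dex + LPS, against 45.7, 41.9 and 41.3 CPM with LPS. Its log2 fold changes were -4.89, -0.87 and -2.02.

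The 12 genes with CACGTG in the promoter window and the 23 without it can be set side by side as a description. With LPS, 1 of the 12 rose and 9 fell (median -0.191), against 5 of 23 and 13 of 23 (median -0.208). With iBRD9 + LPS, 9 of the 12 rose and 2 fell (median 0.404), against 12 of 23 and 6 of 23 (median 0.128). With Dex + LPS, 5 of the 12 rose and 2 fell (median 0.077), against 7 of 23 and 13 of 23 (median -0.298). For the difference between the iBRD9 effects with and without Dex, 9 of the 12 were negative and none positive (median -0.396), against 10 of 23 negative and 4 positive (median -0.178). Gaa, Naglu, Lamp1 and Mcoln1, whose sequences are given with the promoters, were among those that rose with iBRD9, and Ctsl and Lgmn carried the motif and fell.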

How the data were processed

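Total RNA of 31 libraries was sequenced, and the authors deposited one table of raw counts per gene for each experiment. Per the submitters' processing notes, fastp, STAR and DESeq2 were used and the build was mm10. The sources used here do not name the counting tool, its annotation or its strand setting. From these deposited counts, each experiment was fitted as a whole with edgeR 4.0.16 (R 4.3.3): genes passed filterByExpr with a minimum count of 10 and a minimum total of 15, libraries were scaled by TMM, and the quasi-likelihood F test was applied with Benjamini-Hochberg adjustment over all genes tested. SEs are the log2 fold change divided by the root of F. With 14 residual degrees of freedom, experiment 1 had a biological coefficient of variation of 6.79%, and experiment 2, with 5, had 10.6%. Across the 14 comparisons, DESeq2 1.42.0, limma voom 3.58.1, other scalings and filters, and left-out libraries were tried as alternatives. The fit was tested on simulated data with planted changes. Gene lengths are summed exons of GENCODE M21, and promoters come from RefSeq on GRCm38.p6.

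The 44 genes and the other lists were chosen with earlier results of these data known. All 44 could be named. Library values were given for those called with the largest change, up to 4 for each role, direction and comparison, and for Tfeb, Tfe3, Mitf, Gpnmb, Atp6v0d1 and Atp6v0d2. From the other lists up to 4 called genes were named where the group with the higher level averaged 10 CPM or more. Values of further genes were added after they were seen.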

Additional observations from a re-analysis of the deposited data

Results flagged for a closer look

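A test of the difference itself found that the effect of iBRD9 under LPS was unequal with and without Dex for 27 of the 44 genes. Values are the log2 fold change of iBRD9 with Dex minus that without Dex. Among the glycosidase and sulfatase genes the difference was -0.78 for Neu1, -0.66 for Gaa, -0.65 for Naglu, -0.54 for Glb1, -0.53 for Hexa, -0.35 for Galns, -0.32 for Manba and -0.19 for Gusb. Among the protease genes it was -0.50 for Ctsb, -0.47 for Ctsl, -0.45 for Ctsh, -0.40 for Ctsa, -0.32 for Ctsd, 0.52 for Ctss and 1.43 for Ctsk. The level of Ctsk was near the floor with iBRD9 in both settings, and without iBRD9 it was lower with Dex + LPS than with LPS. Asah1 had -0.23, Lipa -0.20 and Gm2a 0.41. The membrane protein genes Cd68, Mcoln1, Lamp1, Gpnmb and Lamp2 had -0.60, -0.48, -0.39, -0.31 and -0.21. The pump genes Atp6v0c and Atp6v0d1 had -0.51 and -0.35. Tfeb had -0.60 and Mitf 1.03.

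The same test for dBRD9 found 5 genes. The difference was -0.32 for Atp6v0d2, -0.31 for Ctsh, -0.29 for Hexa, -0.25 for Atp6v0c and 0.47 for Ctsc.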

How the results depend on the processing

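Counts of the 44 genes called moved by over 1.5 times under few settings, and the cause was not tested. Fitting only the compared groups, which leaves fewer samples, called 10 for Dex + iBRD9 + LPS against Dex + LPS (23 as reported), 4 for Dex + dBRD9 + LPS against Dex + LPS (9 as reported), and 2 for the difference between the dBRD9 effects with and without Dex (5 as reported). Without both libraries that stood apart by length, Dex + dBRD9 + LPS against Dex + LPS had 15. For IFNγ + LPS against vehicle (21 as reported) library totals gave 40. For dBRD9 + IFNγ + LPS against IFNγ + LPS (1 as reported) library totals gave 0, no filter 2 and only the compared groups 2. For Dex + dBRD9 + IFNγ + LPS against Dex + IFNγ + LPS (0 as reported) no filter gave 2, DESeq2 2, limma voom 1 and only the compared groups 2. Leaving out 1 replicate in turn gave 30 to 33 calls for LPS, 32 to 36 for Dex + LPS, 34 to 36 for iBRD9 + LPS, 13 to 16 for dBRD9 + LPS, 29 to 30 for iBRD9 + LPS against dBRD9 + LPS, 15 to 24 for iBRD9 and 7 to 17 for dBRD9 in Dex-treated cells, 26 to 31 and 3 to 6 for the differences between the effects of iBRD9 and of dBRD9 with and without Dex, 17 to 22 for IFNγ + LPS, 4 to 5 for Dex under IFNγ + LPS, and 0 to 0 for each of the other 3 comparisons of experiment 2. The lowest count for iBRD9 in Dex-treated cells came without replicate 2 of Dex + iBRD9 + LPS, and that of 3 without replicate 3 of LPS, replicate 1 or 3 of dBRD9 + LPS, or replicate 2 or 3 of Dex + dBRD9 + LPS.

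Library totals turned the sign of these log2 fold changes. With LPS against vehicle they gave Ctsh -0.472, Ctsz -0.043, Lamp1 -0.499, Lamp2 -0.382, Cd63 -0.363, Cd68 -0.493, Npc2 -0.231, Atp6v0b -0.151 and Atp6v0c -0.459. With iBRD9 + LPS against LPS they gave Gusb 0.021, Atp6v1b2 0.096 and Tfe3 0.113. With IFNγ + LPS against vehicle they gave Ctsb -0.591, Ctsz -0.610, Psap -0.611, Lamp1 -0.594, Lamp2 -0.076, Cd68 -0.424, Npc2 -0.552, Gpnmb -0.391, Atp6v0b -0.643, Atp6v1a -0.504 and Atp6v1h -0.261.

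Whether replicate numbers pair the libraries cannot be told from the values that follow. Correlations of same-numbered libraries ran from -0.07 to 0.31 in experiment 1 (3 of 63 over 0.1). In experiment 2 they ran from -0.263 to 0.116 (2 of 20 over 0.1). Of 21 libraries in experiment 1, 12 matched their own number best, and of 10 in experiment 2, 2 did. With the replicate block the count was 0 for dBRD9 + IFNγ + LPS against IFNγ + LPS, and between 5 and 37 in the comparisons that called 5 or more as reported.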
